A study of Mus musculus with 10 samples.

Results

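The genes described here encode mitogen-activated protein (MAP) kinases and the kinases above them, the phosphatases that switch them off, protein kinases C and D, calcium/calmodulin-dependent (CaM) kinases and calcineurin. They were taken from the authors' deposited table of differentially accessible regions, in which each region is represented by a bin of 500 bp. A region was a member when the gene body nearest to its bin had a symbol of these families, Dusp1 excepted. There were 50 such regions of 5327, nearest to 31 of the 122 protein-coding genes whose symbols fit. The assay was ATAC-seq, in which a transposase inserts adapters into open chromatin, on PCM1-stained cardiomyocyte nuclei sorted from the left and right atria of single mice aged 8 to 12 weeks. The control group had 4 animals and 6 libraries, animals 1 and 3 having a repeat library each, and was labelled only as control. The other group had 4 animals, each with 1 library, and was labelled Prrx1(R1A)-/-. It is called R1A-deleted here, and neither the strain nor the bounds of the allele could be taken from the labels. Nuclei were pooled per animal, so fewer nuclei of a kind and less signal per nucleus cannot be told apart.

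In a MAP kinase cascade a MAP4K or small GTPase activates a MAP3K, which phosphorylates a MAP2K, which in turn phosphorylates a MAP kinase such as ERK, JNK or p38. Dual-specificity phosphatases remove the activating phosphates from the MAP kinase, and several are themselves induced by the pathway they end. Calcium acts through CaM kinases and through calcineurin, a phosphatase, and together with diacylglycerol it activates protein kinase C. In heart muscle these enzymes are known for their parts in growth, stress responses and the control of calcium cycling.

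The table lists regions that the authors had already called, with the largest adjusted p at 0.04999, so unchanged regions and whole-library depth could not be used. At the targeted locus, 2 listed regions lay within 50 kb of Prrx1, with 48.6 to 57.3 and 37.6 to 84.3 scaled reads (defined next) in controls and 0 to 3.33 and 1.75 to 4.73 in R1A-deleted animals. Reads in the listed bins ranged from 151976 to 521778 per library, and those in the member bins from 1312 to 4593. Counts were summed per animal and divided by size factors on the scale that the authors' own fold changes imply, and are called scaled reads. With that scale edgeR called 50 of the 50 members at an adjusted p of 0.05, against a percentage of 100 over all listed regions, so a call on this scale adds nothing to the authors' selection. Adjusted p-values of the members ran from 1.56e-06 to 0.0038 with edgeR's quasi-likelihood test. With TMM factors, which assume that most regions do not differ, edgeR called 25 of 50 members against 51.9% of all listed regions. That assumption cannot hold in a table made up of called regions. Whether cells sorted from the atria were of the labelled type cannot be read from a table without unchanged regions: 5 of 8 cardiomyocyte markers were nearest to a listed region, with 20 regions higher and 25 lower, and 19 of 49 markers of other cell types were, with 17 higher and 7 lower. The part of other cell types in the values below was not tested.

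By direction in the authors' deposited table, 36 member regions were higher in R1A-deleted atria and 14 lower, or 72% higher against 66.7% of all listed regions. The members leaned much as the whole table did. The regions at the upper tiers of the cascade, 12 at MAP3K and MAP4K genes and 3 at a MAP2K gene, were all higher, whereas 4 of 5 regions at dual-specificity phosphatase genes were lower. With TMM factors edgeR called 5 of these 12 and 1 of these 3, against 27.8% of all higher listed regions. It called the 4 lower phosphatase regions, against 100% of all lower listed regions. Of the 5 phosphatase regions 4 lay more than 50 kb from the gene. Protein kinase C and D genes had 6 higher and 4 lower, CaM kinase genes and a CaM kinase inhibitor gene 7 and 3, calcineurin genes 2 and 1, and the MAP kinases themselves 2 and 2. These are counts of few regions each, and no test of a difference between roles was made. The animals of both groups did not overlap at 33 of the 36 higher regions, or 91.7%, against 90.6% of all higher listed regions (60.4% of the whole table). They did not overlap at 13 of the 14 lower ones, or 92.9%, against 88.8% (29.6% of the whole table). The exceptions were Map3k8, Map3k9 and Map3k20 among higher regions and Mapk4 among lower ones.

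**Figure D1:**
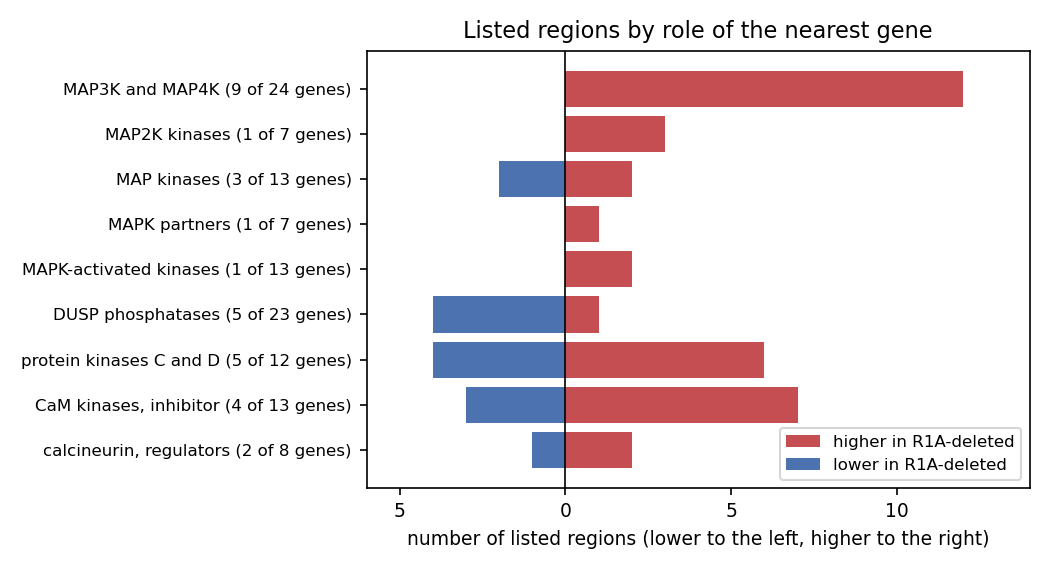
Number of listed regions nearest to genes of each role, lower in R1A-deleted atria to the left and higher to the right, with the number of genes that had a region beside each name. MAP3K and MAP4K genes had 12 higher regions and none lower, and dual-specificity phosphatase (DUSP) genes 4 lower and 1 higher.

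The size of the change did not single the members out. The authors' log2 fold changes, given here as R1A-deleted over control, ran from -1.03 to 1.43 among members and from -2.94 to 2.56 in the whole table. Median values were 0.83 for higher members and -0.76 for lower ones, against 0.81 and -0.80 over all listed regions. Higher members went from a median of 37.3 scaled reads in controls to 76.7, against 38.9 to 80.8 over all higher listed regions. Lower members went from 85.0 to 45.0, against 65.5 to 31.8 over all lower ones, and so had more reads in both groups. No member was wider than 1000 bp, whereas 11.3% of all listed regions were. Of the members 34, or 68%, lay inside a gene body against 60.9% of all listed regions, 8 more lay within 50 kb, and 8 lay farther away. No other protein-coding gene lay over a member's bin. Genes not annotated as protein-coding did at Map3k13 (Gm26744), Map4k5 (4930512B01Rik), the outer Map3k1 region (Gm15322) and a Prkce region (Gm52296). The nearest gene gives a region's place, and expression was not measured here.

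**Figure D2:**
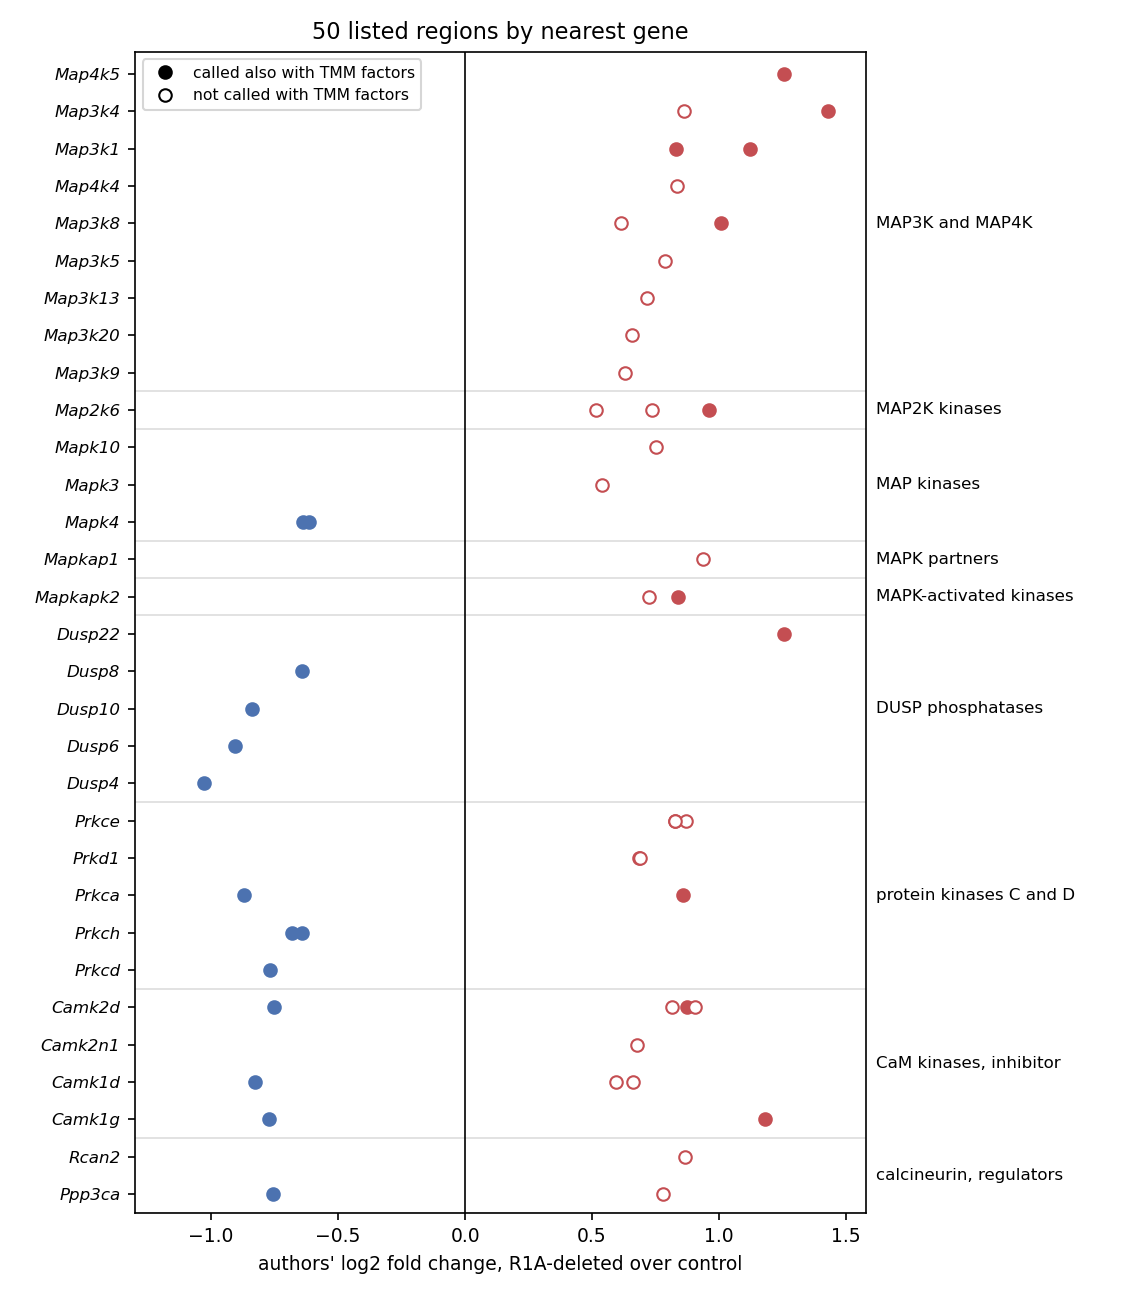
The authors' log2 fold change, R1A-deleted over control, of all 50 member regions by nearest gene and role; filled points were also called by edgeR with TMM factors and open points were not. All 14 lower regions are filled, against 11 of the 36 higher ones. TMM factors assume that most regions do not differ, which cannot hold here, so an open point does not mark an unchanged region.

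The number of higher regions called depended on the scale. As the assumption behind TMM factors cannot hold here, a missing call with them does not show that a higher region is unchanged. With TMM factors, which moved log2 changes down by 0.60 in the median, edgeR called 11 of the 36 higher members, or 30.6% against 27.8% of all higher listed regions (18.5% of the whole table). All 14 lower members were called, against 100% of all lower listed regions (33.3% of the whole table). The 11 regions lay at 10 genes: Map3k4, Map3k1 (both its regions), Map3k8, Map4k5, Map2k6, Mapkapk2, Dusp22, Prkca, Camk1g and Camk2d. Without R1A-deleted animal 2 the count with TMM factors was 3. It was 5 without R1A-deleted animal 1, control 2 or control 4 and 7 without control 3. It was 8 without R1A-deleted animal 4, 9 without R1A-deleted animal 3 and 12 without control 1. With library size alone edgeR called 24 of the 36, and DESeq2 with its own size factors 7. The shares of all higher listed regions under these settings, and without an animal, were not worked out. Whether the members differ from the whole table in these counts is therefore not known.

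MAP3K and MAP4K genes had the 2 largest gains among the members, at Map3k4 and Map4k5, with the authors' log2 changes from 0.62 to 1.43 and a median of 0.83 over 12 regions at 9 genes. The other 15 genes of these families had no listed region. Map3k4 encodes a kinase that Gadd45 proteins bind and that feeds the JNK and p38 branches. A region inside it (mm10 chromosome 17, 12275501 to 12276250) had 22.7, 4.71, 9.79 and 11.3 scaled reads in control animals 1 to 4 and 56.9, 45.7, 50.1 and 61.7 in R1A-deleted animals 1 to 4. The lowest R1A-deleted animal had about as much again as the highest control, and control 2 had only 2 reads. The log2 change was 1.95 ± 0.31 (SE; edgeR adjusted p = 1.04e-05). Another region 3.2 kb away inside Map3k4 went from 22.6 ± 3.92 to 49.2 ± 8.86 scaled reads (SD, n = 4 each).

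Map4k5 encodes a germinal centre kinase that acts above MAP3Ks. A region inside it (chromosome 12, 69807501 to 69808250) had 11.1, 9.41, 13.99 and 10.1 scaled reads in the controls and 51.7, 65.6, 31.2 and 18.3 in the R1A-deleted animals. The controls lay close together and the R1A-deleted animals were spread out, without overlap. The log2 change was 1.86 ± 0.36 (SE; edgeR adjusted p = 8.15e-05). Near Map4k4, a related kinase, a region 5.4 kb from the gene went from 28.4 ± 9.23 to 56.3 ± 14.9 scaled reads (SD, n = 4 each).

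Map3k1 encodes a MAP3K of the JNK branch that is also a ubiquitin ligase, and it had a pair of regions 245.0 kb apart. The one farther out (chromosome 13, 112043251 to 112044250), 225.2 kb before the gene's 5′ end and 244.5 kb from Ankrd55, had 36.95, 47.1, 29.4 and 22.7 scaled reads in controls and 67.5, 103.4, 93.6 and 71.7 in R1A-deleted animals. Every R1A-deleted animal was above every control, and the log2 change was 1.36 ± 0.23 (SE; edgeR adjusted p = 1.53e-05). The region inside the gene went from 73.2 ± 31.4 to 168 ± 20.8 scaled reads (SD, n = 4 each), with controls 2 and 4 at 42.4 and 51.6 and controls 1 and 3 at 109 and 89.98.

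Map3k8 encodes a MAP3K known for activating ERK after inflammatory signals. A region 64.6 kb from the gene (chromosome 18, 4266001 to 4266750) had 24.8, 14.1, 15.4 and 3.8 scaled reads in controls and 69.2, 46.7, 32.2 and 33.3 in R1A-deleted animals. The groups did not overlap, although control 4 had only 3 reads there. The log2 change was 1.53 ± 0.36 (SE; edgeR adjusted p = 0.000355). A region over the higher-coordinate end of the gene went from 101 ± 17.6 to 155 ± 27.7 scaled reads (SD, n = 4 each), and there R1A-deleted animal 2, at 118, was below control 2, at 127.

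The remaining regions of this tier were single ones inside their genes. Map3k5, a kinase activated by oxidative stress, went from 31.4 ± 8.24 to 67.0 ± 14.9 scaled reads (SD, n = 4 each). Map3k13, a leucine zipper kinase, went from 27.8 ± 6.94 to 48.1 ± 3.03, and its bin reached into the promoter window of the noncoding gene Gm26744. Map3k20, known for sensing stalled ribosomes, went from 41.5 ± 12.6 to 68.4 ± 8.96, with R1A-deleted animal 3, at 56.8, below control 2, at 58.8.

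Mapk3 and Map3k8, which have regions over a gene end, had no promoter window in RefSeq, so whether those regions cover a start was not examined. Among the 22 of 31 genes with a window, Map3k9, a mixed lineage kinase, had the only member region that overlapped that of its own gene. The bases before the start are shown because the bin (chromosome 12, 81781001 to 81781500) covers all 250 of them, and capitals mark matches on either strand to CCAAT and to GGGCGG, the letters of the CCAAT box and the GC box.
Map3k9 promoter (GRCm38.p6, chr12:81781171-81781420, minus strand): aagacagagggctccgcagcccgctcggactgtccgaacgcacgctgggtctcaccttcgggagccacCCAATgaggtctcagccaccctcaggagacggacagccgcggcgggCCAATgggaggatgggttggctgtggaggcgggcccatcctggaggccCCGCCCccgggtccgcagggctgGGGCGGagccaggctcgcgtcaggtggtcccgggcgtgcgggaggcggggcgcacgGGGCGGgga
It held 3 matches to GGGCGG, found in 32.7% of 32851 RefSeq windows of the same length, and 2 to CCAAT, found in 33.8%. Its GC content was 74.0% against a median of 52.4%. The letters TGACGTCA (in 1.55% of all windows), CACGTG (6.02%), TATAAA (12.4%) and AGATAA (9.99%) were also searched on both strands and not found in it, which says nothing of the factors that bind them. Scaled reads were 61.8, 63.5, 62.0 and 80.5 in controls and 126, 99.4, 77.6 and 132 in R1A-deleted animals. R1A-deleted animal 3 was below control 4, so the groups overlapped. The log2 change was 0.70 ± 0.19 (SE; edgeR adjusted p = 0.00122) and fell short with TMM factors (0.10, adjusted p = 0.634).

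**Figure D3:**
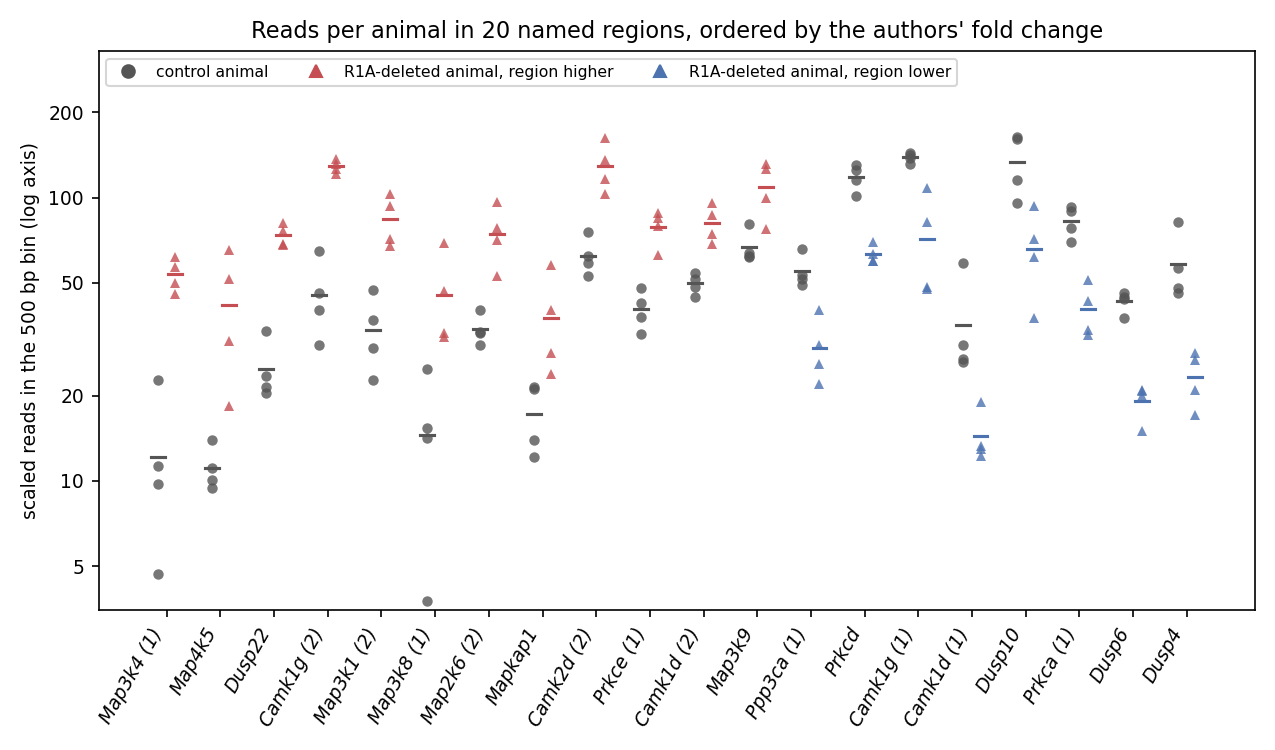
Scaled reads in the 500 bp bin (log axis) of each control animal (circles) and R1A-deleted animal (triangles) for 20 named regions, with a bar at the mean; a number in brackets counts a gene's regions by coordinate. Groups overlap at Map3k9, where R1A-deleted animal 3 is at 77.6 and control 4 at 80.5.

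Map2k6, a MAP2K that phosphorylates p38, was the only gene of its tier with a listed region, and had 3, all higher. The region inside the gene (chromosome 11, 110448751 to 110449500) had 33.3, 40.0, 33.6 and 30.2 scaled reads in controls and 71.0, 96.4, 52.97 and 78.3 in R1A-deleted animals. Each R1A-deleted animal was above all controls, and the log2 change was 1.14 ± 0.22 (SE; edgeR adjusted p = 7.85e-05), not called by DESeq2 with its own size factors (0.54, adjusted p = 0.0684). The others lay 18.9 kb before the 5′ end, going from 140 ± 3.92 to 206 ± 26.3, and 107.5 kb past the 3′ end, going from 24.3 ± 1.73 to 44.1 ± 10.05 (SD, n = 4 each). With TMM factors the log2 change of the region before the 5′ end was -0.035, the only one of the 36 higher members to turn.

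The MAP kinases themselves had few regions. Mapk10, which encodes a JNK found in heart and brain, had 1 region inside the gene at 46.5 ± 7.15 and 85.5 ± 15.5 scaled reads (SD, n = 4 each). The Mapk3 region, whose bin overlaps the lower-coordinate end of this ERK gene by 125 bp, went from 111 ± 21.8 to 166 ± 20.8, and at an authors' adjusted p of 0.0499 it was the member nearest to their threshold. Its groups did not overlap, but with TMM factors its log2 change was 0.005.

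Mapk4, an atypical MAP kinase gene, went the other way, with a pair of lower regions 21.2 kb apart inside it. The one at chromosome 18, 73989501 to 73990000, had 65.5, 72.9, 81.1 and 57.9 scaled reads in controls and 37.7, 45.7, 49.2 and 36.7 in R1A-deleted animals, without overlap. The other went from 174 ± 20.3 to 106 ± 30.4 (SD, n = 4 each), and there R1A-deleted animal 2, at 151, was above control 1, at 148. It was the only lower member whose groups overlapped.

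Below and beside the MAP kinases, Mapkapk2 and Mapkap1 had higher regions. Mapkapk2 encodes a kinase that p38 activates, and its 2 regions lay 10.1 and 12.6 kb before the 5′ end. The nearer one had 76.5, 35.3, 52.7 and 23.9 scaled reads in controls and 115, 111, 107 and 115 in R1A-deleted animals, so that controls varied far more than R1A-deleted animals. Mapkap1, which despite its symbol encodes a subunit of the mTORC2 complex, had a region 2.9 kb from the nearer of its annotated starts (chromosome 2, 34409501 to 34410250). That region had 12.1, 21.2, 13.99 and 21.4 scaled reads in controls and 57.8, 23.9, 28.4 and 40.0 in R1A-deleted animals. Its log2 change was 1.23 ± 0.35 (SE; edgeR adjusted p = 0.00161), and it was not called with TMM factors (0.63, adjusted p = 0.133). The S6 kinase genes had no listed region.

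Of 23 dual-specificity phosphatase genes 5 had a region, 1 each. Dusp4 encodes a nuclear phosphatase of ERK, JNK and p38 that is itself induced by ERK signalling, and its region (chromosome 8, 34709001 to 34709750) held the largest loss of all members by the authors' fold change, -1.03. Scaled reads were 45.9, 82.3, 56.4 and 47.8 in controls and 21.0, 26.8, 17.03 and 28.3 in R1A-deleted animals. Every R1A-deleted animal lay below every control, and the log2 change was -1.28 ± 0.26 (SE; edgeR adjusted p = 9.76e-05). The region lay 97.9 kb from Dusp4 and 119.4 kb from the next gene, Tnks.

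Dusp6 encodes a cytoplasmic phosphatase specific for ERK. Its region (chromosome 10, 99327501 to 99328000), past the 3′ end of the gene and 129.4 kb from the next gene, Poc1b, had 37.5, 44.7, 46.2 and 44.1 scaled reads in controls and 21.0, 19.9, 20.8 and 15.0 in R1A-deleted animals. Both groups were tight and well separated, and the fitted log2 difference was -1.13 ± 0.27 (SE; edgeR adjusted p = 0.000496).

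Dusp10 and Dusp8 encode phosphatases that act mainly on p38 and JNK. The Dusp10 region (chromosome 1, 184173001 to 184174000), 97.6 kb past the 3′ end, had 95.6, 115, 163 and 161 scaled reads in controls and 37.7, 93.4, 61.5 and 71.7 in R1A-deleted animals. R1A-deleted animal 2, at 93.4, came close to control 1 without reaching it, and the log2 change was -1.04 ± 0.22 (SE; edgeR adjusted p = 0.000181). The Dusp8 region, the only one of the 5 inside its gene, went from 89.3 ± 4.07 to 52.7 ± 14.3 (SD, n = 4 each).

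Dusp22, an atypical member of the family reported to promote JNK signalling, was the exception. Its region (chromosome 13, 30603501 to 30604500) had 33.8, 23.5, 20.5 and 21.4 scaled reads in controls and 76.2, 81.5, 68.1 and 68.3 in R1A-deleted animals. The groups were far apart, and the log2 change was 1.54 ± 0.23 (SE; edgeR adjusted p = 3.75e-06). It lay 56.1 kb from Dusp22 and 58.2 kb from Uqcrfs1, almost as near to one gene as to the other. As 4 of the 5 phosphatase regions lay more than 50 kb from the gene, a limit of 50 kb would leave only Dusp8.

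Protein kinase C genes held regions of both directions. Prkce, a calcium-independent isoform known for protecting mouse heart against ischaemia, had 3 higher regions, all inside the gene. The region at chromosome 17, 86198251 to 86199250, had 48.0, 42.4, 33.1 and 37.8 scaled reads in controls and 79.7, 62.6, 87.96 and 85.0 in R1A-deleted animals. Its groups did not overlap, and the fitted log2 difference was 0.97 ± 0.21 (SE; edgeR adjusted p = 0.000179), which fell short with TMM factors (0.37, adjusted p = 0.126). The other Prkce regions went from 27.4 ± 6.29 to 53.2 ± 7.82 and from 15.4 ± 2.38 to 31.7 ± 7.23 (SD, n = 4 each).

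Prkcd and Prkch, which encode other calcium-independent isoforms, had lower regions. The Prkcd region (chromosome 14, 30593251 to 30594000), 1.4 kb past the 3′ end, had 115, 125, 102 and 131 scaled reads in controls and 59.6, 59.6, 69.99 and 63.3 in R1A-deleted animals. The groups were well apart, and the fitted log2 difference was -0.89 ± 0.17 (SE; edgeR adjusted p = 8.69e-05). Prkch had a lower region inside the gene, from 111 ± 13.2 to 62.1 ± 19.4, and another 16.3 kb from it, from 87.5 ± 22.3 to 47.6 ± 8.68 (SD, n = 4 each).

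Prkca, the calcium-dependent isoform that is abundant in heart and dampens contractility in mice, had 1 region of each direction, 215.0 kb apart inside the gene. The lower region (chromosome 11, 107950001 to 107950750) had 69.7, 89.4, 92.8 and 78.0 scaled reads in controls and 34.2, 32.8, 51.1 and 43.3 in R1A-deleted animals. The higher region (chromosome 11, 108165501 to 108166500) had 129, 111, 73.7 and 91.9 in controls and 185, 181, 212 and 217 in R1A-deleted animals. Neither overlapped between groups, and the log2 changes were -1.03 ± 0.21 and 0.98 ± 0.17 (SE; edgeR adjusted p = 0.00011 and 2.02e-05). Prkd1, a protein kinase D that phosphorylates class II histone deacetylases, had a higher region inside the gene, from 50.8 ± 17.8 to 94.3 ± 18.9, and another 48.2 kb before the 5′ end, from 49.9 ± 14.4 to 95.95 ± 21.7 (SD, n = 4 each).

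CaM kinase genes often held both directions. Camk2d encodes the main CaM kinase II of heart muscle, which phosphorylates the ryanodine receptor and phospholamban, and it had the most regions of any member, 4. The lower one (chromosome 3, 126598001 to 126598500), 1.3 kb inside the annotated start, had 75.5, 65.9, 69.5 and 55.4 scaled reads in controls and 37.7, 30.8, 28.4 and 48.3 in R1A-deleted animals. It did not overlap between groups, and the log2 change was -0.92 ± 0.22 (SE; edgeR adjusted p = 0.000465).

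The 3 higher Camk2d regions lay 64.0, 173.1 and 234.8 kb from the start, farther into the gene. That at chromosome 3, 126660501 to 126661500, had 75.5, 58.8, 62.0 and 52.9 scaled reads in controls and 163, 136, 116 and 103 in R1A-deleted animals. It was apart between groups, and the fitted log2 difference was 1.04 ± 0.18 (SE; edgeR adjusted p = 2.87e-05), and it was called by edgeR with TMM factors (0.44, adjusted p = 0.0425) but not by DESeq2 with its own size factors (0.45, adjusted p = 0.0593). The other higher regions went from 12.2 ± 6.14 to 34.3 ± 10.8 and from 56.7 ± 33.5 to 140 ± 20.4 (SD, n = 4 each). Camk2n1, which encodes an inhibitor of CaM kinase II, had a higher region 0.9 kb from the gene, at 126, 162, 126 and 154 scaled reads in controls and 222, 223, 237 and 217 in R1A-deleted animals. The groups were apart by a wide margin for their spread, yet the region was not called with TMM factors (0.10, adjusted p = 0.536).

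Camk1d and Camk1g encode CaM kinase I isoforms, and each had regions of both directions. In Camk1d the lower region (chromosome 2, 5514751 to 5515250) had 26.4, 58.8, 27.0 and 30.2 scaled reads in controls and 12.3, 12.9, 18.9 and 13.3 in R1A-deleted animals. Control 2 stood above the other controls, and without it the log2 change went from -1.19 to -0.93 (edgeR adjusted p = 0.0153). A higher Camk1d region 92.8 kb away (chromosome 2, 5608001 to 5608500) had 48.6, 51.8, 44.8 and 54.1 in controls and 86.7, 74.5, 95.5 and 68.3 in R1A-deleted animals. The groups did not overlap there, but its log2 change of 0.74 ± 0.19 (SE; edgeR adjusted p = 0.000825) was not called with TMM factors (0.14, adjusted p = 0.513). The other higher region, 28.5 kb on, went the same way, from 95.1 ± 26.6 to 159.8 ± 13.3 (SD, n = 4 each).

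The lower Camk1g region (chromosome 1, 193346751 to 193347500) lay inside the gene, 23.0 kb from the annotated start and 0.9 kb from the 3′ end. The next gene, Lamb3, was 3.1 kb away. Scaled reads were 131, 144, 141 and 138 in controls and 82.4, 47.7, 108 and 48.3 in R1A-deleted animals. All R1A-deleted animals were below the tight controls, and the fitted log2 difference was -0.92 ± 0.20 (SE; edgeR adjusted p = 0.000234). The higher region (chromosome 1, 193625251 to 193626250) lay 255.1 kb before the 5′ end, the farthest of all members, and had 64.9, 40.0, 46.2 and 30.2 in controls and 137, 121, 127 and 132 in R1A-deleted animals. Its log2 change was 1.44 ± 0.20 (SE; edgeR adjusted p = 1.56e-06).

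**Figure D4:**
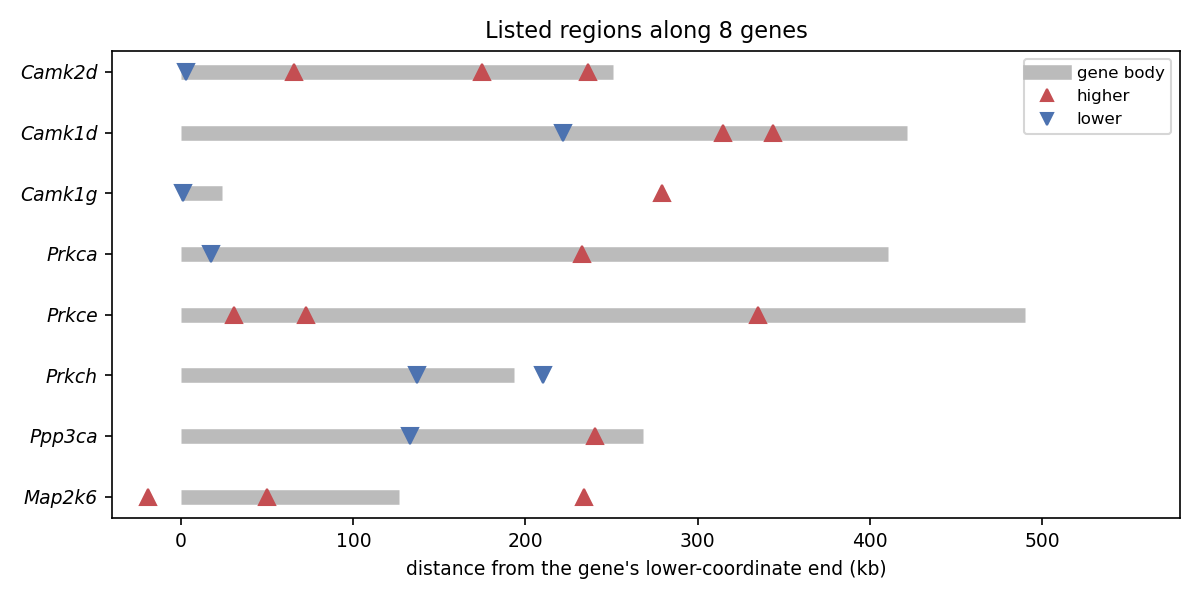
Position of the listed regions along 8 member genes, as distance in kb from the gene's lower-coordinate end; grey bars are gene bodies, upward triangles regions higher in R1A-deleted atria and downward triangles lower ones. Camk2d, Camk1d, Prkca and Ppp3ca hold both directions inside the gene, whereas the higher Camk1g region lies 255.1 kb outside it. Gaps between opposite neighbours run from 62.2 to 278.0 kb, the widest at Camk1g.

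Calcineurin was represented by Ppp3ca, its alpha catalytic subunit, with a region of each direction 107.0 kb apart inside the gene. The lower one (chromosome 3, 136802251 to 136802750) had 51.7, 65.9, 53.2 and 49.1 scaled reads in controls and 21.9, 25.8, 30.3 and 40.0 in R1A-deleted animals. Its groups did not overlap, and the fitted log2 difference was -0.91 ± 0.23 (SE; edgeR adjusted p = 0.000785). The higher one went from 29.1 ± 10.5 to 66.3 ± 23.7 (SD, n = 4 each). Rcan2, which encodes an inhibitor of calcineurin, had 1 higher region inside the gene, at 13.7, 18.8, 18.7 and 12.6 scaled reads in controls and 35.9, 50.7, 22.7 and 36.7 in R1A-deleted animals. It was not called with TMM factors (0.60, adjusted p = 0.14).

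Among the 14 member genes with more than 1 region, 7 held gains alone, 2 losses alone and 5 both directions. The share with both was 35.7%, against 24.8% of the 1037 genes with more than 1 listed region in the whole table.

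Genes around these enzymes were examined through a list of 91 receptors, adaptors, scaffolds and targets of the same pathways. Of these 31 had a listed region, with 60 higher and 25 lower by the authors' direction, or 70.6% higher against 66.7% of all listed regions, and a median log2 change of 0.75. Akap6 alone gave 10 of the 25 lower regions. With TMM factors edgeR called 16 of the 60 higher regions, or 26.7% against 27.8% of all higher listed regions, and all 25 lower ones against 100%. Adra1b, an alpha-1 adrenergic receptor that couples to phospholipase C, had 4 higher regions inside the gene, and the 1 with the smallest authors' adjusted p went from 195 ± 17.8 to 388 ± 37.3 scaled reads (SD, n = 4 each). The phospholipase genes Plcb1 (3 higher), Plcb4 (5 higher, 1 lower) and Plce1 (2 higher, 1 lower) had more higher than lower regions, whereas the only region of Plcd3 was lower (-0.81).

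Gadd45b and Gadd45g, whose products bind and activate the Map3k4 kinase, had 5 higher, and 3 higher and 1 lower. Those of Gadd45g lay outside the gene, as far as 306.8 kb away. Of the Gadd45b regions 2 lay inside the gene and the others up to 7.3 kb from it, most of them close neighbours. None of the 5 Gadd45b regions was called with TMM factors. At Gadd45b (chromosome 10, 80931001 to 80931750) controls had 103 ± 13.97 and R1A-deleted animals 192 ± 20.6 scaled reads (SD, n = 4 each). Among targets of CaM kinase and protein kinase D, Hdac7 had 4 higher regions, Hdac4 4 higher and 1 lower, Mef2d 4 higher and Mef2c 3 higher, while Hdac9 had 2 lower (-0.78 and -0.77). None of the higher regions of Hdac4, Mef2d and Mef2c was called with TMM factors, against 2 of the 4 of Hdac7. At Hdac7 (chromosome 15, 97820751 to 97822250) controls had 76.4 ± 9.83 and R1A-deleted animals 186 ± 31.97 (SD, n = 4 each).

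Anchoring proteins differed among themselves. Akap6, a scaffold of the nuclear envelope that gathers calcineurin and protein kinase A in myocytes, had 10 lower regions inside the gene and none higher, with the authors' log2 changes from -1.05 to -0.65. Some of these were close neighbours, such as 52926501 to 52928750 and 52929001 to 52929500 on chromosome 12. Pdlim5, a Z-disc protein that binds protein kinase C, had 3 lower, of which the region with the smallest authors' adjusted p (chromosome 3, 142360001 to 142361000) held 31.7 ± 4.57 scaled reads among controls against 10.4 ± 4.78 after deletion (SD, n = 4 each). Akap13, which binds protein kinase D, had 2 lower and 1 higher. Fkbp5, an FK506-binding protein and not an anchoring one, had 5 higher regions, with the authors' log2 changes from 0.68 to 1.27. Of these 2 were called with TMM factors. Ksr1, a scaffold of the ERK branch, had 2 higher regions, with the authors' log2 changes at 1.00 and 1.35.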

How the data were processed

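Per the submitters' processing notes, BWA, bedtools, DESeq2 and the build mm10 were used, without versions or roles given. How bins were filtered, reads shifted for the transposase cut and duplicates treated is not stated there. Fragments were read as pairs of 150 bp. The authors' deposited read counts per 500 bp bin were whole in all but 17 cells, which held 0.1 while no cell held 0, so they were handled as estimated counts and rounded. The deposited group signal equalled the geometric mean of the counts to within a relative 7.8e-10. The authors' deposited log2 fold change was turned to R1A-deleted over control, and the deposited adjusted p-values were used as given. Both repeat libraries were added to their animal's first one, after a chi-square test showed differences above sampling noise (1.83 and 1.7 per degree of freedom), so 4 animals stood against 4.

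Bins were assigned to the nearest of 21900 protein-coding gene bodies of RefSeq GRCm38.p6, the same coordinates as mm10; ties went to the gene end nearer the bin's midpoint. Strand and promoter sequence came from the RefSeq promoter table, which held 22 of the 31 genes. Size factors were median ratios within a group. The difference between groups, 0.142 log2, came from regressing the authors' fold changes on the ratio of deposited means in the 1432 regions where neither mean was under 50 (slope 0.874). edgeR 4.0.16 under R 4.3.3 was fitted to all 5327 regions (glmQLFit, glmQLFTest), filterByExpr removed 1 region, not a member, and p-values were adjusted by Benjamini-Hochberg at 0.05 over all regions. The fitted log2 change divided by the square root of F gave its SE. As the authors had selected the regions on these very libraries, the p-values are no independent evidence of a difference. DESeq2 1.42.0 was an alternative.

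Values per animal were given for the region with the smallest authors' adjusted p of each gene with at least 3 regions, the 8 largest gains and 8 largest losses by the authors' fold change with 1 per gene, and any region whose bin overlaps its gene's promoter window. Other regions given per animal, namely those of Mapk4, Mapkapk2, Camk2n1, Rcan2, the lower Camk2d and the higher Prkca region, were chosen after their values were seen. Of the pathway genes, those with at least 3 regions were named, and Ksr1, Hdac9 and Plcd3 were added after their values were seen. Some items are not reported here. Members, gene lists and the choice of scale were made with earlier results of these data known.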

Additional observations from a re-analysis of the deposited data

Results flagged for a closer look

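Within each group of 4 animals, a value was picked out when its gap to the nearest other animal exceeded Dixon's critical share of the group's range, which chance does in about 1 in 20 groups. Over the 50 members this examined 100 groups and picked out 4, or 4%, fewer than that chance share. In the lower Camk1d region control 2 had 58.8 scaled reads and the other controls 26.4 to 30.2, and R1A-deleted animal 3 had 18.9 where the others had 12.3 to 13.3. At the region before the 5′ end of Map2k6 control 1 had 134 and the others 141 to 142, a group that was tight throughout. At the Map3k9 promoter control 4 had 80.5 and the others 61.8 to 63.5, and without it the log2 change was 0.79 rather than 0.70.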

How the results depend on the processing

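By the authors' direction, members with an adjusted p under 0.01 (44% of members, 50.7% of all listed regions) numbered 16 higher and 6 lower, bins inside the gene 25 and 9, and 1 region per gene 23 and 8, so that the share higher stayed between 72.7% and 74.2%. Over all listed regions it was 71.5% under 0.01 and 66.8% inside genes. Bins within 50 kb gave 31 and 11. The share over all listed regions was not worked out within 50 kb or for 1 region per gene. Assignment by merged region left 36 and 14. By edgeR, calls of higher members went from 36 to 11 with TMM factors, 24 with library size alone and 7 with DESeq2's own size factors, while the 14 lower members were called under each, as these scales move all log2 changes downward and so cannot test them. The same downward move takes calls from the higher members, so a missing call under these scales does not show that a higher member is unchanged. A floor of 50 mean scaled reads left 20 higher and 10 lower, by fewer regions tested. Leaving out each animal gave 36 higher and 14 lower throughout on the authors' scale. With TMM factors, an alternative chosen after seeing the data, it gave 3 to 12 higher and 14 lower: 3 without R1A-deleted animal 2, 5 without R1A-deleted animal 1, control 2 or control 4, and 7 without control 3. The share of all higher listed regions was not worked out without an animal, with library size alone or with DESeq2's own size factors. The 20 regions named by rule kept their call in 160 of 160 values from fits on the authors' scale that left out an animal. With all animals this scale called 5326 of the 5327 listed regions, which the authors had selected on these libraries. Neither the 160 values nor the unchanged 36 and 14 can therefore test the members. Same-numbered animals deviated together for number 1 only (correlation 0.26, others -0.04 to 0.04), so the numbers do not pair them, and with the replicate block 36 higher and 14 lower were called, as without it. Depth per library is unknown, and the SE of the log2 change was widest at a Camk2d region with 12.2 scaled reads in controls (0.37).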

Other observations

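Member genes with a listed region were longer than the others whose symbols fit, with a median gene length of 109.4 kb for 31 genes against 26.0 kb for 91. The same held over all protein-coding genes, at 49.1 kb for the 3148 nearest to a listed region and 14.8 kb for the 18752 others. Which members of a family appear in the table therefore went with gene length, and the part of length in the counts by role was not tested. Genes of the rule without any listed region included Mapk8, Mapk14, Map2k1, Map3k7, Camk2a, Camk2b, Camk2g, Prkcb and Rcan1.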
